A study of Mus musculus with 48 samples.

Results

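Heat shock proteins and DNAJ co-chaperones were described across nervous tissue and liver of Tia1 knockout mice. The members were all genes whose platform symbol begins with Hspa, Hspb, Hspd, Hspe, Hsph, Hsp90 or Dnaj, which gave 68 genes on 151 probe sets, of 17097 genes on 28898 probe sets with a single symbol. Each gene was represented by its probe set with the highest mean over all 48 arrays, and 42 of the 68 had more than 1. The levels are log2 values, and a log2 difference is given as the first group minus the second. Levels of different genes were not compared because each probe set binds with its own strength. Hspa1a, Hsp90ab1, Hspd1 and Hspb6 are not analysed here. The Hspa1b probe set may also read the near-identical Hspa1a.

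Liver and the nervous tissues spinal cord, midbrain and cerebellum were dissected from Tia1 knockout (KO) and C57Bl/6 wild-type (WT) mice at 3 and at 6 months of age, with 3 mice in each of the 16 groups. TIA-1 is an RNA-binding protein that nucleates stress granules, and the study asked which transcripts change when it is lost. The KO allele was made by homologous recombination at exon 4, so it acts in every cell from conception and leaves a shortened Tia1 mRNA. The sources differ on the WT mice, which the deposited design calls littermates and the methods purchased C57BL6/J mice, while the KO mice were bred from homozygous matings. No treatment or heat stress was given, and the mice were killed by cervical dislocation. If the WT mice were purchased, breeding colony and genotype cannot be told apart, and age cannot be told apart from anything else that differed between collections. In these bulk tissues, fewer cells of a type and less RNA per cell cannot be told apart.

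HSP70 proteins bind unfolded stretches of other proteins and release them in a cycle driven by ATP. DNAJ proteins deliver the clients and start that cycle, HSP110 proteins such as Hsph1 exchange the nucleotide, HSP90 proteins finish many clients, and small heat shock proteins hold clients until the others take over. In the cytosol the heat-inducible members are switched on by heat shock factor 1 at heat shock elements, whereas those of the endoplasmic reticulum (ER) belong to the unfolded protein response, and long-lived neurons such as motor neurons are known to induce heat shock proteins poorly.

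The labelled tissues carried their markers. Alb had a mean of 13.1 in liver, Pcp2 12.3 in cerebellum, Slc6a3 8.74 in midbrain and Hoxc8 8.85 in spinal cord. The Tia1 probe set that reports the recombined exon 4 fell in KO mice in all 6 nervous tissue comparisons, with differences of -2.35 to -1.79 (limma adjusted p of 1.38e-06 or below), while the 3 brightest other Tia1 probe sets differed by 0.53 to 0.71 in spinal cord at 3 months. In liver the exon 4 probe set was lower by less than the test could call, with -0.76 at 3 months (adjusted p = 0.117) and -0.39 at 6 months (adjusted p = 0.426). Arrays of a group correlated at 0.985 or above. The median SD between mice of a group over the members was 0.0886 in midbrain, 0.0920 in spinal cord, 0.0982 in cerebellum and 0.150 in liver, so liver differences were the least precise. The mean of 9 skeletal muscle markers ran from 3.76 to 10.19 in spinal cords of WT mice at 3 months, from 6.13 to 8.42 in KO mice at 3 months, from 3.98 to 4.95 in WT at 6 months and from 3.89 to 7.41 in KO at 6 months, against at most 4.10 in any cerebellum, and in liver it reached 7.79 in a KO mouse at 3 months.

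The promoters of the members that the results turn on are shown first because both stress responses act through short motifs there. Windows from 250 bases before to 50 bases after the transcription start came from RefSeq (mouse build GRCm38.p6) and covered 55 of the 68 members. A heat shock element of 2 units, GAANNTTC or TTCNNGAA on either strand, was found in 13 of 55 members (23.6%), against 17% of all 27025 genes with a window. The 3-unit form, GAANNTTCNNGAA or TTCNNGAANNTTC, which contains the shorter form, was found in 3 members, Dnajb6, Hspe1 and Hsph1 (5.45%), against 0.662% of all genes. The ER stress element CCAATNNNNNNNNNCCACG, on either strand, was found in 3 members, Hspa5, Hsp90b1 and Dnajc3 (5.45%), against 0.137% of all genes. A match is a description of letters and not of binding. The stretches below run 5′ to 3′ on the strand of the gene, with the motif in capitals, and lie at chr17:34959325-34959352 (minus strand) for Hspa1b, chr5:135887792-135887819 (plus) for Hspb1, chr1:55088051-55088078 (plus) for Hspe1, chr2:34772020-34772047 (plus) for Hspa5, chr10:86705634-86705661 (minus) for Hsp90b1 and chr14:118937822-118937849 (plus) for Dnajc3.
Hspa1b: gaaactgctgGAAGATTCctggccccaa
Hspb1: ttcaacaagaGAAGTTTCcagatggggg
Hspe1: acggtccgTTCTAGAACCTTCcggaagg
Hspa5: cttcaCCAATCGGAGGCCTCCACGacgg
Hsp90b1: caagcCCAATCGCAAGGAGCCACGcttc
Dnajc3: cacaaCCAATCAGCGCCAACCACGaccc

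Most members differed between tissues. In WT mice, with 6 per tissue and each tissue set against the mean of the other 3, limma called 29 of 68 members higher and 27 lower in spinal cord (26.8% and 38.2% of all probe sets), 22 and 39 in cerebellum (30.1% and 35.0%), 30 and 26 in midbrain (28.4% and 36.8%), and 32 and 28 in liver (42.8% and 33.3%). Fewer members were called between midbrain and spinal cord (34 of 68, against 39.5% of all probe sets) than between liver and midbrain (61 of 68, against 75.2%). Liver was the highest tissue for 29 members and the lowest for 26. The shares of all probe sets include dim ones. Over probe sets with a mean above 5, the median absolute difference in spinal cord was 0.36 for members against 0.37 for all. It was 0.45 against 0.52 in cerebellum, 0.42 against 0.39 in midbrain and 0.95 against 0.97 in liver.

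**Figure D1:**
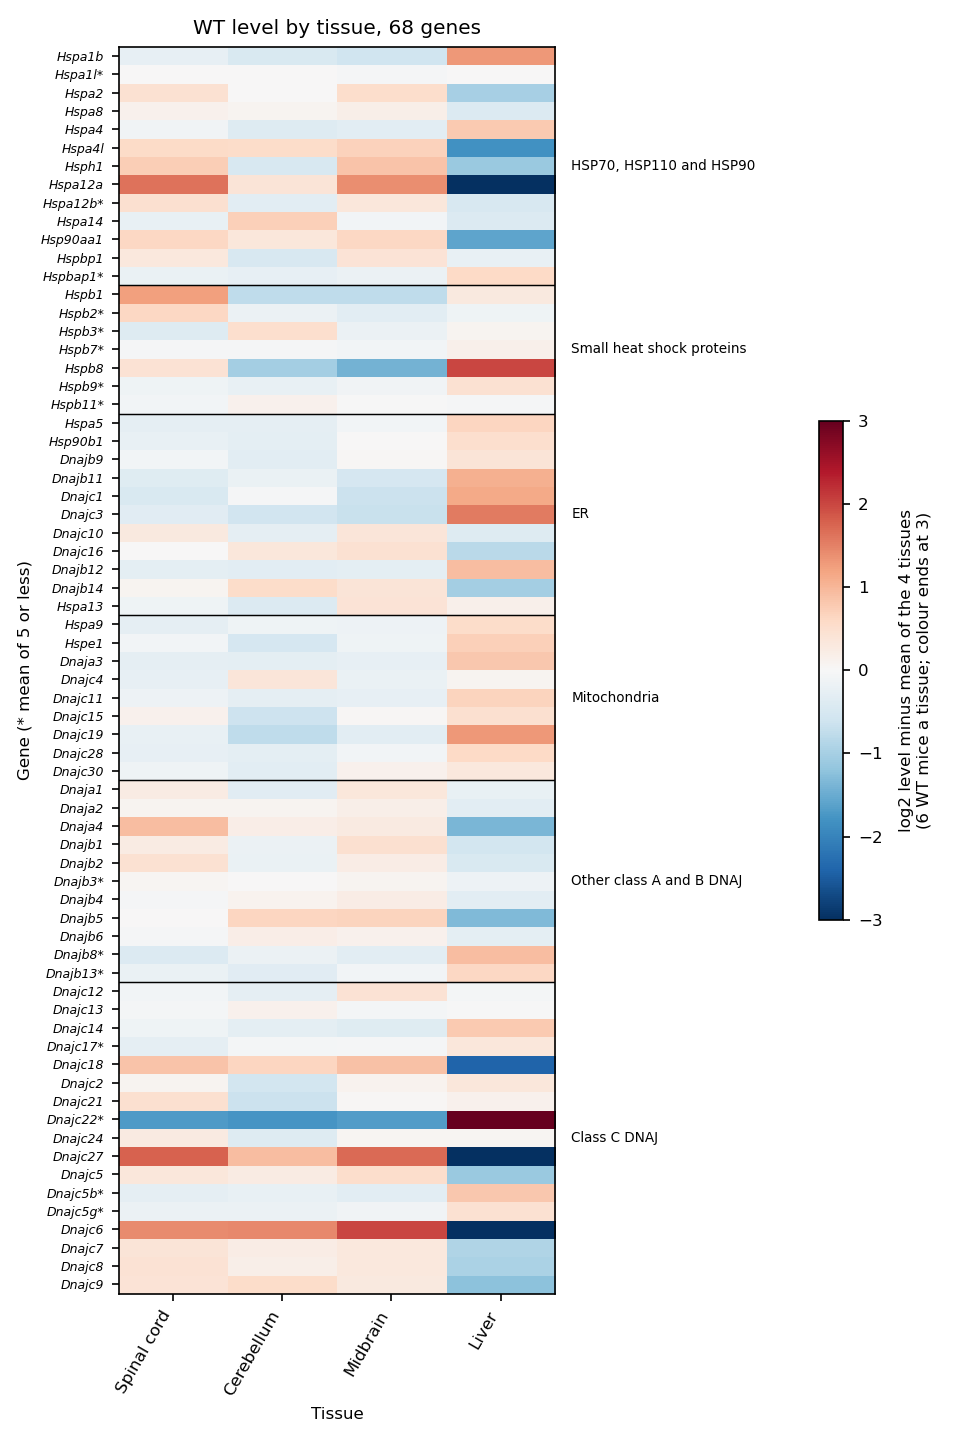
Each row is a member and each column a tissue, coloured by the WT level in that tissue minus the mean of the member's 4 tissues (log2, 6 WT mice per tissue), and a star marks members with a mean of 5 or below over the 48 arrays. Dnajc22 stands out as high in liver, and Dnajc6, Dnajc27 and Hspa12a as low there.

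The widest differences belonged to DNAJ proteins with specialised tasks. Dnajc6 encodes auxilin, which uncoats clathrin vesicles at synapses, and its lowest, median and highest WT levels were 10.92, 11.03 and 11.10 in midbrain, 10.36, 10.39 and 10.52 in spinal cord, 10.29, 10.50 and 10.55 in cerebellum, and 3.77, 4.18 and 4.42 in liver. No liver mouse came near a nervous tissue mouse, and the liver difference was -6.49 (SE 0.07, -90.0-fold). Dnajc27 (-5.85, -57.8-fold), the HSP70-related Hspa12a (-4.53) and Dnajc18 (-3.20) were also lower in liver, and Dnajc5, the cysteine string protein that guards synaptic vesicle fusion, fell by 1.49. Dnajc22 went the other way, with liver levels of 9.22 to 9.55 against at most 2.67 in the nervous tissues (6.89, SE 0.07, 118-fold). Of the 8 members listed as synaptic or clathrin-related, 5 were called lower in liver and 2 higher.

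Heat-inducible cytosolic members were mostly higher in spinal cord and midbrain and mostly lower in cerebellum and liver. Of the 10 measured, 8 were called higher in spinal cord with none lower, 7 higher and 3 lower in midbrain, 3 higher and 6 lower in cerebellum, and 3 higher and 7 lower in liver. Hsp90aa1, the inducible cytosolic HSP90, had lowest, median and highest levels of 12.04, 12.07 and 12.22 in spinal cord and 9.42, 9.83 and 10.38 in liver, and the liver difference was -2.12 (SE 0.09, -4.36-fold). Its spinal cord and midbrain levels did not differ past the test (-0.01, adjusted p = 0.952). Hsph1 ran from 10.79 to 11.04 in midbrain, 10.73 to 10.89 in spinal cord, 9.39 to 9.79 in cerebellum and 8.56 to 9.53 in liver, so that cerebellum stood apart from both other nervous tissues. Dnajb1, the main stress-induced partner of HSP70, was also lowest in liver (-0.73, SE 0.09), as was the constitutive Hspa8 by its brightest probe set (-0.54, SE 0.09). A second bright Hspa8 probe set was lowest in liver at both ages, and another at 6 months only. The dimmest went the other way, with WT means of 6.95 and 7.57 in liver at 3 and 6 months. Its WT means in the nervous tissues ran from 6.05 to 6.72. Of the 11 HSP70 and HSP110 members listed as cytosolic 7 were called lower in liver and 3 higher. Those higher were Hspa4 (1.06), Hspa13 (0.21) and Hspa1b, with 6.83 to 7.62 in liver against 4.79 to 6.37 in all nervous tissues (1.74, SE 0.26, 3.34-fold). Hspa13 was also listed as an ER member and is counted among those below.

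Small heat shock proteins marked spinal cord and liver. Hspb1, which protects motor neurons and their neurofilaments, had lowest, median and highest levels of 9.76, 9.98 and 10.46 in spinal cord, 8.51, 9.17 and 9.26 in liver, 7.62, 8.04 and 8.33 in cerebellum and 7.69, 7.95 and 8.43 in midbrain. Every spinal cord lay above every other tissue (1.64, SE 0.10, 3.11-fold), and cerebellum and midbrain did not differ past the test (adjusted p = 0.955). Hspb8, a partner of the autophagy co-chaperone Bag3, followed the order liver, spinal cord, cerebellum and midbrain, with means of 10.05, 8.47, 7.01 and 6.61 and no overlap between liver and the other tissues (2.69, SE 0.11, 6.43-fold). Of the other small heat shock proteins Hspb2, Hspb3, Hspb7, Hspb9 and Hspb11 exceeded 5 on no array. Skeletal muscle also makes Hspb1 and Hspb8, and the muscle markers given above varied between the spinal cords. The part of muscle in the spinal cord levels of Hspb1 and Hspb8 was not tested.

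Secretory and mitochondrial chaperones were higher in liver. Of 11 ER members, 8 were called higher in liver and 3 lower, and of 9 mitochondrial members 8 were higher and none lower. Dnajc3, an ER co-chaperone that also restrains the kinase PERK, ran from 10.60 to 10.87 in liver against 8.39 to 8.93 in the nervous tissues (2.07, SE 0.06, 4.21-fold). Dnajb11 (1.42), Hspa5 (0.86), the ER HSP90 Hsp90b1 (0.66) and Dnajb9 (0.50) were also higher in liver. Hspa5, the ER HSP70 known as BiP, did not differ past the test between cerebellum and spinal cord (adjusted p = 0.956). In mitochondria Dnajc19, tied to the import motor, was 1.72 higher in liver, the chaperonin partner Hspe1 0.95 and the mitochondrial HSP70 Hspa9 0.72. Outside the family, 14 of 18 ER folding genes were called higher in liver and 2 lower, and 6 of 7 mitochondrial folding genes higher and none lower, whereas 9 of 14 chaperonin CCT and prefoldin genes were lower and 1 was higher.

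No member differed past the test between KO and WT mice in any tissue at either age. By limma with Benjamini-Hochberg adjustment over 45037 probe sets, 0 of 68 members were called in spinal cord at 3 months (0.318% of all probe sets) and at 6 months (0.127%), in cerebellum at 3 (0.375%) and 6 months (0.155%), in midbrain at 3 (0.611%) and 6 months (0.229%), and in liver at 3 (0.375%) and 6 months (0.606%). At an unadjusted p under 0.05 the same comparisons held 3 members (9.83% of all probe sets), 7 (7.36%), 3 (10.1%), 6 (7.37%), 9 (14.7%), 10 (11.1%), 8 (10.5%) and 8 (11.9%). Fits that pooled all 48 arrays called between 0 and 2 members per comparison with tissue weights. The same fit without weights, which applies 1 spread to all tissues, called 9 members in liver at 3 months and 11 at 6 months. For these pooled fits the share of all probe sets called was not counted. Their counts therefore cannot be read as a result about the members. Averaged over both ages, 0 of 68 members were called in spinal cord (0.548% of all probe sets), cerebellum (0.511%), midbrain (0.862%) and liver (1.28%), with 6, 7, 11 and 10 at an unadjusted p under 0.05 (9.36%, 10.3%, 13.7% and 13.2%).

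Differences of the members between KO and WT mice were small. Their median absolute change was 0.052 in spinal cord at 3 months against 0.082 over all probe sets, 0.058 against 0.075 at 6 months, 0.083 against 0.091 and 0.070 against 0.082 in cerebellum, 0.079 against 0.088 and 0.068 against 0.080 in midbrain, and 0.116 against 0.143 and 0.141 against 0.150 in liver. Each member is its gene's brightest probe set, whereas 19383 of all probe sets exceeded 5 on no array. Over probe sets with a mean above 5, the 53 members had 0.051 against 0.077 and 0.058 against 0.066 in spinal cord. The values were 0.081 against 0.100 and 0.069 against 0.072 in cerebellum, and 0.068 against 0.086 and 0.045 against 0.072 in midbrain. In liver they were 0.110 against 0.140 at 3 months, but 0.159 against 0.145 at 6 months. In the nervous tissues the 95% confidence interval of the change lay within 1.5-fold in either direction for 65 or 66 of the 68 members in each comparison, against 93.4% to 96.6% of all probe sets. In liver this held for 51 members at 3 months and 42 at 6 months, against 58% and 56.5%, with a median distance of 0.29 from the difference to the end of its interval, against 0.17 to 0.20 in the nervous tissues.

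Groups of KO and WT mice that did not overlap were found for 7 members higher and 4 lower in spinal cord at 3 months (7.92% and 9.22% of all probe sets), 5 and 4 at 6 months (6.11% and 5.42%), 5 and 2 in cerebellum at 3 months (8.70% and 5.66%), 7 and 5 at 6 months (7.18% and 6.89%), 12 and 5 in midbrain at 3 months (9.35% and 13.0%), 7 and 5 at 6 months (7.62% and 6.99%), 4 and 8 in liver at 3 months (8.36% and 7.40%), and 9 and 8 at 6 months (9.07% and 9.14%). An exact permutation test of 3 against 3 mice cannot give a p below 0.1.

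**Figure D2:**
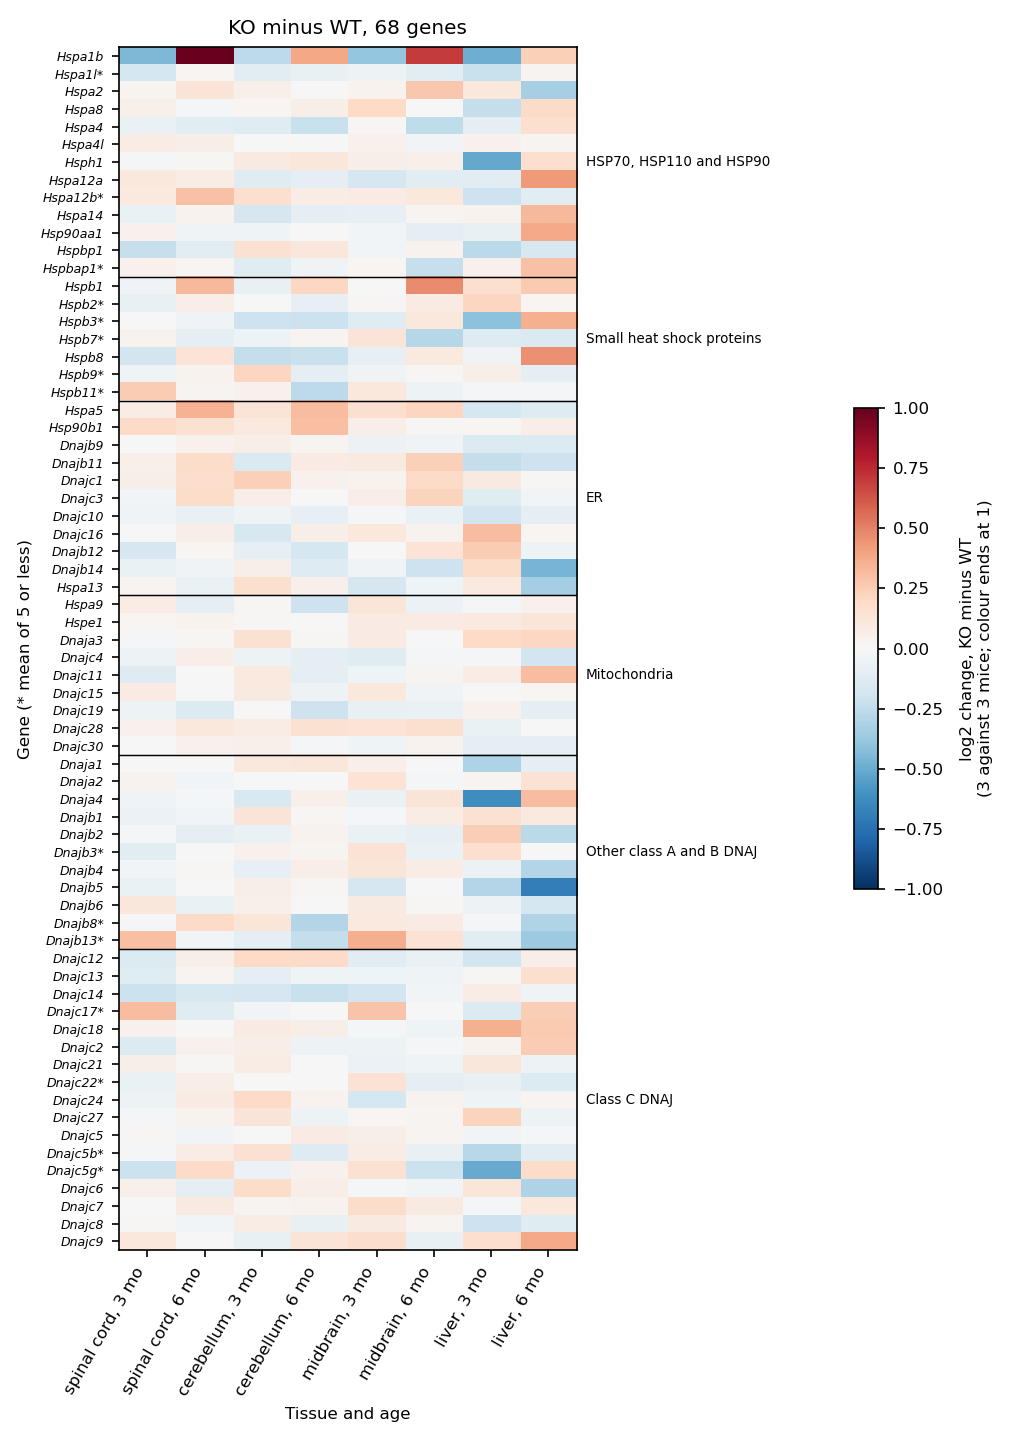
Each row is a member and each column a tissue and age, coloured by the KO minus WT difference (log2, 3 against 3 mice), with a star for members with a mean of 5 or below over the 48 arrays. The Hspa1b row changes from lower at 3 months to higher at 6 months in every tissue.

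Hspa1b, the stress-inducible HSP70 whose transcript is scarce in unstressed cells, had the largest change of any member in all 6 nervous tissue comparisons. At 6 months its spinal cord levels were 5.16, 5.34 and 5.65 in WT mice and 5.36, 7.04 and 6.73 in KO mice 122970, 122972 and 122973. KO mice 122972 and 122973 lay above all WT mice, and KO 122970 lay within them. The difference was 0.99 (SE 0.33, adjusted p = 0.493). At 3 months the spinal cord levels were 5.62, 6.37 and 5.95 in WT and 5.39, 5.62 and 5.57 in KO mice, a difference of -0.45 (SE 0.33, adjusted p = 0.711) in which the groups overlapped slightly.

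The same picture returned in the other tissues of these mice. In midbrain at 6 months Hspa1b was 4.79, 5.04 and 5.39 in WT and 5.16, 6.15 and 6.02 in KO mice (0.70, SE 0.24, adjusted p = 0.305), in cerebellum 5.32, 5.16 and 5.49 in WT and 5.16, 6.05 and 5.91 in KO (0.39, SE 0.21), and in liver 6.83, 7.02 and 6.96 in WT and 6.57, 7.44 and 7.52 in KO (0.24, SE 0.23). In each tissue KO mouse 122970 was the lowest KO mouse and the other KO mice lay above every WT mouse. At 3 months the differences were -0.39 in midbrain, -0.26 in cerebellum and -0.49 in liver, where WT levels of 7.62, 7.57 and 7.45 lay above KO levels of 6.73, 7.33 and 7.11. Hspa1b was the only member lower in KO mice at 3 months and higher at 6 months in all 4 tissues, a pattern held by 0.491% of all probe sets, and all 3 Hspa1b probe sets had the same sign in 8 of 8 comparisons.

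**Figure D3:**
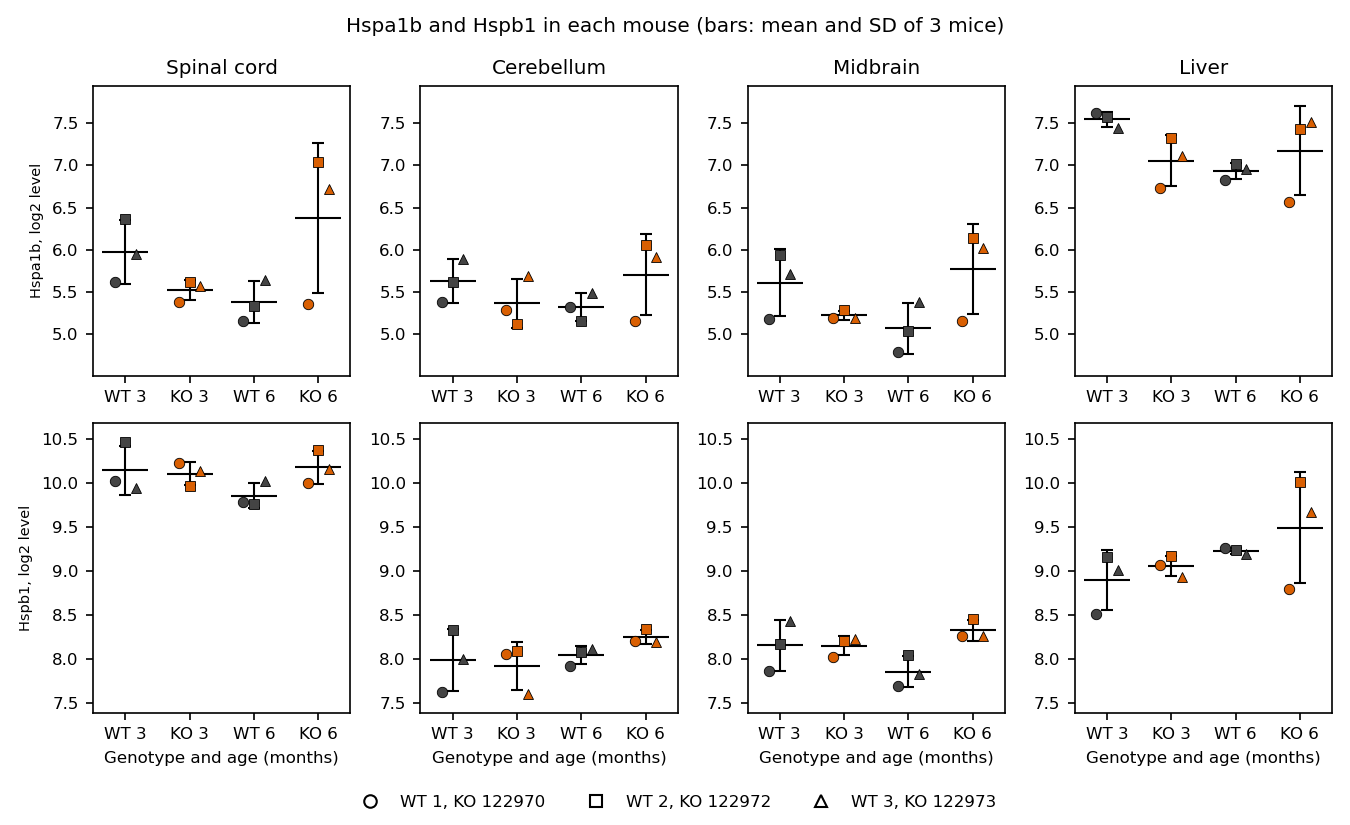
Log2 levels of Hspa1b (top) and Hspb1 (bottom) in each mouse by tissue, genotype and age in months, with bars for the mean and SD of 3 mice. In the KO mice of 6 months, KO 122970 sits below the other KO mice for Hspa1b in all 4 tissues, at 5.36 against 7.04 and 6.73 in spinal cord.

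The change of the KO effect from 3 to 6 months was called for 0 of 68 members in spinal cord (0.0133% of all probe sets), cerebellum (0.0178%), midbrain (0.0222%) and liver (0.0333%), with 4, 6, 7 and 7 members at an unadjusted p under 0.05 (7.50%, 6.81%, 11.8% and 8.92%). For Hspa1b it was 1.45 in spinal cord (SE 0.47, adjusted p = 0.536), 1.09 in midbrain (SE 0.34, adjusted p = 0.275), 0.65 in cerebellum (adjusted p = 0.725) and 0.73 in liver (adjusted p = 0.546). Without KO mouse 122970 of 6 months, the 6-month difference in spinal cord was 1.502 (SE 0.20, 2.83-fold, limma adjusted p = 0.0132) and passed the test. It was 1.01 in midbrain (adjusted p = 0.0877), 0.66 in cerebellum (adjusted p = 0.443) and 0.54 in liver (adjusted p = 0.233), and the change between ages in spinal cord was 1.95 (adjusted p = 0.0561). Each mouse was left out in turn, and this one is given because it changed the call, after the Hspa1b values were seen. It was the lowest KO mouse of 6 months for Hspa1b in 4 of 4 tissues, so leaving it out had to raise these differences. The p-values without it therefore cannot serve as evidence of a KO effect. Among the KO mice of 6 months, KO 122970 was the lowest for 35 of 68 members in spinal cord and 35 in midbrain (32.9% and 32.2% of all probe sets), 28 in cerebellum (35.5%) and 26 in liver (36.7%).

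Hspa1b levels of spinal cord and midbrain varied together over the mice. Over the 12 mice, deviations from the group mean in spinal cord and midbrain had Pearson's r = 0.95 and Spearman's rho = 0.97, with an exact permutation p = 0.0007716, the smallest that the 1296 arrangements within groups allow, and an adjusted p = 0.0139 over 18 relations (6 tissue pairs of 3 genes). Without the 2 mice farthest from the median in spinal cord, KO 122970 and KO 122972 of 6 months, r was 0.95. The other 5 Hspa1b relations had r from 0.52 to 0.79 and did not pass, and none passed for Hspb1 or Hspa5. Without the 2 mice farthest from the median in the first-named tissue of a pair, those 5 had r from -0.05 to 0.48. Leaving out extreme mice narrows the range and can lower r by itself, so nothing is concluded from the fall. For midbrain and liver the mice left out were KO 122970 of 6 months and WT 1 of 3 months. As a description, the mean r over the 6 tissue pairs was 0.73 for Hspa1b (0.127% of all probe sets were above it). The next members were Dnajb1 with 0.62 (0.375%), Hspa5 with 0.57 (0.595%), Dnajc19 with 0.54 (0.742%) and Hsph1 with 0.49 (1.27%). The other heat-inducible members were lower, with 0.39 for Hspb1, 0.25 for Dnaja1, 0.23 for Hspa8 and 0.22 for Hspa4l. Hsp90aa1 had 0.13, Hspb8 0.013 and Dnajb4 0.0032. The median was 0.092 over the members and 0.030 over all probe sets.

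Hspb1 was higher in the KO mice of 6 months in the 3 nervous tissues, past the test in none. In midbrain its levels were 7.69, 8.04 and 7.83 in WT and 8.25, 8.45 and 8.25 in KO mice, so that all KO mice lay above all WT mice (0.47, SE 0.13, adjusted p = 0.209). In spinal cord they were 9.77, 9.76 and 10.02 in WT and 10.00, 10.37 and 10.15 in KO mice (0.32, SE 0.14, adjusted p = 0.643), with KO 122970 just below the highest WT mouse. In cerebellum they were 7.92, 8.07 and 8.11 in WT and 8.20, 8.34 and 8.19 in KO mice, without overlap (0.21, SE 0.16, adjusted p = 0.857). At 3 months the differences were -0.04 in spinal cord, 0.00 in midbrain and -0.07 in cerebellum, so Hspb1 was higher in 3 of 6 nervous comparisons. A second bright Hspb1 probe set gave 0.41 in spinal cord and 0.37 in midbrain at 6 months, and 2 dim ones did not follow.

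The rest of the heat-inducible cytosolic set stayed near the WT level in nervous tissue. The whole set has 10 measured members, Hspa1b and Hspb1 among them, so the counts below are not of the rest alone. None of the 10 was called in any comparison. Those past an unadjusted p of 0.05 were 2 higher in spinal cord at 6 months, 1 higher in midbrain at 3 months and 2 at 6 months. In liver they were 2 lower at 3 months and 1 higher with 1 lower at 6 months. Over all probe sets, the shares higher and lower at that threshold were 4.43% and 5.40% in spinal cord at 3 months, 3.75% and 3.61% at 6 months, 6.35% and 3.77% in cerebellum at 3 months, 3.48% and 3.89% at 6 months, 5.71% and 9.01% in midbrain at 3 months, 5.68% and 5.37% at 6 months, and 5.58% and 4.93% in liver at 3 months and 5.89% and 6.02% at 6 months. Hsp90aa1 differed by 0.04 and -0.03 in spinal cord at 3 and 6 months (SE 0.08). Hsph1 differed by -0.01 and 0.02 there (SE 0.07), and Dnajb1 by -0.06 and -0.02 (SE 0.11). Of 4 heat shock factor genes measured outside the family none was called in any comparison, with 1 lower in liver at 3 months at an unadjusted p under 0.05.

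Among ER chaperones Hspa5 was higher in KO nervous tissue in 6 of 6 comparisons. In spinal cord at 6 months its levels were 10.04, 10.01 and 9.87 in WT and 10.21, 10.39 and 10.37 in KO mice, with no overlap (0.35, SE 0.08, adjusted p = 0.187). In cerebellum at 6 months they were 10.00, 10.00 and 10.05 in WT and 10.23, 10.41 and 10.34 in KO mice (0.31, SE 0.12, adjusted p = 0.580), again apart. Midbrain was apart at both ages, by 0.16 (adjusted p = 0.314) and 0.22 (adjusted p = 0.283). At 3 months the groups overlapped in spinal cord (0.07) and cerebellum (0.13).

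Averaged over both ages, Hspa5 was 0.19 higher in midbrain (adjusted p = 0.109), 0.21 in spinal cord (adjusted p = 0.156) and 0.22 in cerebellum (adjusted p = 0.380). In liver it was lower at both ages (-0.18 and -0.13), with KO levels of 10.85, 10.85 and 10.84 below WT levels of 10.99, 10.94 and 11.004 at 6 months. The second Hspa5 probe set had the same sign in 8 of 8 comparisons. The 6-month spinal cord difference passed the test with a trended and robust prior (adjusted p = 0.00479) and with the weighted fit of all arrays (adjusted p = 0.0490). Those settings are named because it passed in them, and it did not pass in the main fit. No member was called there with the unweighted fit, the level filter, quantile normalisation, the replicate block or the mean of probe sets. In all, 7 of 68 members were higher in 6 of 6 nervous comparisons (3.82% of all probe sets) and 3 were lower in all of them (3.71%).

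Markers of other cell types also differed between the same KO and WT tissues. Averaged over both ages, the 6 endothelial markers measured had a median difference of 0.14 in each nervous tissue, with 1 called higher, in midbrain. Of 7 oligodendrocyte markers measured, 2 were called lower in midbrain, 1 in spinal cord and 1 in cerebellum. Of 8 microglial markers none was called. At an unadjusted p under 0.05, 5 were lower in midbrain and 3 in spinal cord, while in cerebellum 1 was lower and 1 higher. At 6 months in spinal cord, the mean of the endothelial list ran from 6.11 to 6.18 in WT and from 6.10 to 6.41 in KO mice, that of the oligodendrocyte list from 10.06 to 10.31 and from 9.96 to 9.98, and that of the microglial list from 7.47 to 7.52 and from 7.25 to 7.33. Their part in the Hspa5 differences was not tested.

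**Figure D4:**
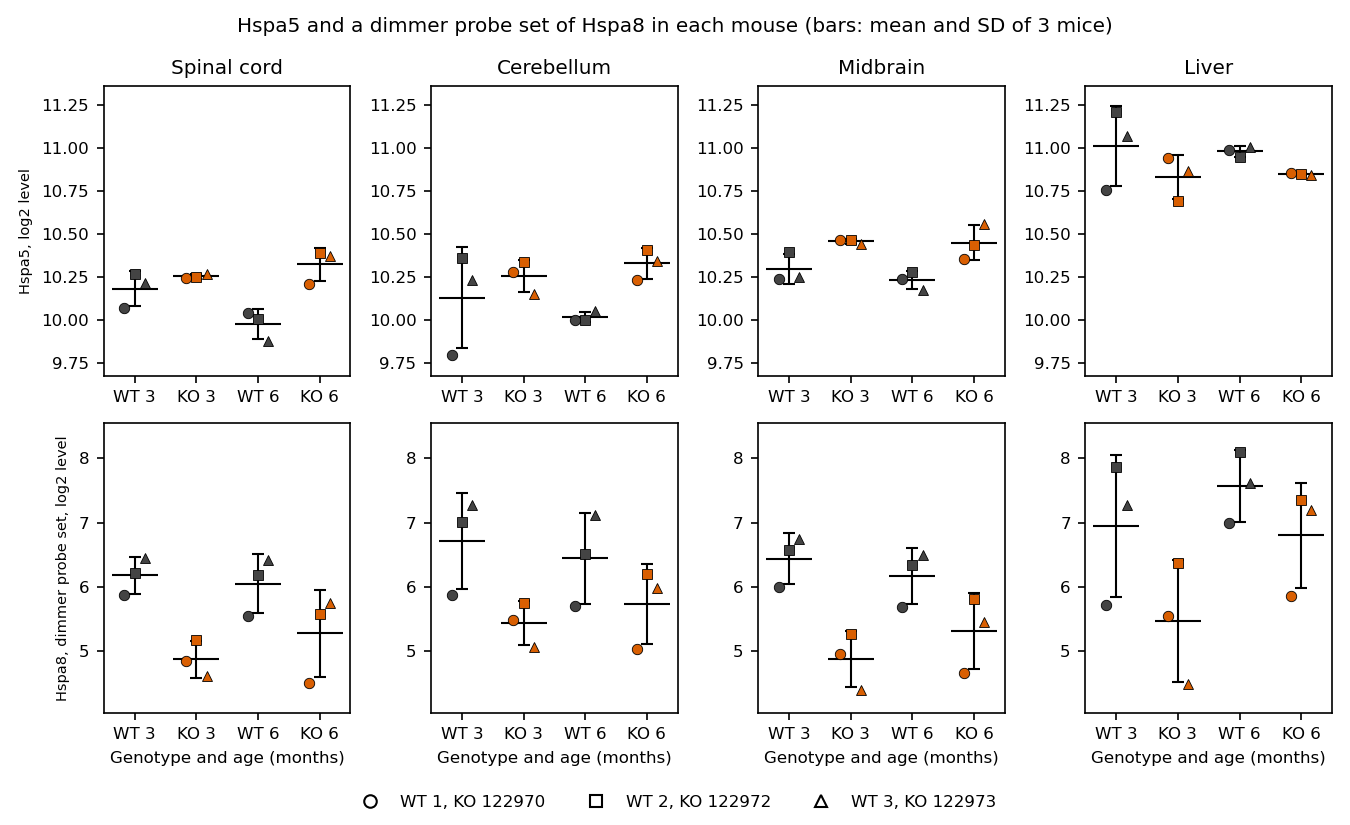
Log2 levels of Hspa5 (top) and of a dimmer Hspa8 probe set (bottom) in each mouse by tissue, genotype and age in months, with bars for the mean and SD of 3 mice. For Hspa5 the KO mice of 6 months lie above the WT mice in the 3 nervous tissues and below them in liver, and for the Hspa8 probe set the KO mean lies below the WT mean in all 8 comparisons.

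Other ER members moved by small amounts. Hsp90b1 was higher by 0.19 in spinal cord at 3 months and 0.30 in cerebellum at 6 months, both without overlap (adjusted p = 0.560 and 0.662). Dnajb11, which carries clients to Hspa5, differed by 0.18 in spinal cord and 0.24 in midbrain at 6 months, and Dnajc3 by 0.19 and 0.22, all without overlap (adjusted p from 0.266 to 0.628). Dnajb9 changed by at most 0.06 in the nervous tissues. Of the 11 ER members, 4 in spinal cord, 3 in midbrain and 2 in cerebellum were higher at 6 months at an unadjusted p under 0.05, with 1 lower, in midbrain, beside the shares of all probe sets given above. At 3 months the same count was 1 higher in midbrain, with none higher or lower in spinal cord and cerebellum.

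ER folding genes outside the family gave 2 calls. Of 18 measured, 7 in spinal cord, 8 in midbrain and 4 in cerebellum were higher at 6 months at an unadjusted p under 0.05, with 1 lower, in cerebellum. At 3 months 3 were higher and 1 lower in spinal cord, 3 and 1 in cerebellum, and 2 and 2 in midbrain, while in liver none was higher and 4 and 6 were lower at 3 and 6 months. Sdf2l1, a partner of Hspa5 and Dnajb11, passed the test in spinal cord at 6 months (0.60, SE 0.10, limma adjusted p = 0.0340). Ddit3, the transcription factor CHOP of the unfolded protein response, fell by 0.34 in midbrain at 3 months (SE 0.07, limma adjusted p = 0.0499).

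The constitutive HSP70, Hspa8, gave different answers from different probe sets. Its brightest probe set was at 12.24 to 12.62 in WT spinal cord and changed by at most 0.06 in size in spinal cord and cerebellum, by 0.20 and 0.00 in midbrain, and by -0.24 and 0.19 in liver, none past the test. A second bright one had means of 12.32 in WT and 12.35 in KO midbrain at 3 months. In liver at 6 months its means were 11.46 in WT and 11.72 in KO mice, and it was called in no comparison. A dimmer probe set (mean of 6.56 in WT mice), which was picked out after its values were seen, was lower in KO mice in 8 of 8 comparisons. In midbrain at 3 months it was 5.99, 6.58 and 6.74 in WT and 4.95, 5.27 and 4.41 in KO mice, with no overlap (-1.56, SE 0.31, -2.95-fold, limma adjusted p = 0.0395).

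Elsewhere the differences of this Hspa8 probe set at 3 and 6 months were -1.30 and -0.77 in spinal cord, -1.28 and -0.70 in cerebellum, -0.86 in midbrain at 6 months, and -1.48 and -0.77 in liver, none of them past the test. Averaged over both ages it passed in midbrain (-1.21, -2.32-fold, limma adjusted p = 0.0221) and missed in spinal cord (-1.04, adjusted p = 0.0533), cerebellum (-0.99, adjusted p = 0.173) and liver (-1.12, adjusted p = 0.269). The same mice were lowest in every tissue of their group: WT 1 at both ages, KO 122973 at 3 months and KO 122970 at 6 months.

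Another Hspa8 probe set rose in midbrain at 3 months, from 8.48, 8.55 and 8.47 in WT to 8.90, 8.81 and 8.87 in KO mice (0.36, limma adjusted p = 0.0214), and was -0.13 at 6 months. It was also higher without overlap, but not past the test, in spinal cord at 3 months (0.35, adjusted p = 0.285), in cerebellum at 6 months (0.34, adjusted p = 0.523) and in liver at 6 months (0.51, adjusted p = 0.252), where the levels were 8.003, 8.14 and 8.16 in WT and 8.46, 8.74 and 8.62 in KO mice. A dimmer probe set of Dnaja2, a cytosolic partner of Hspa8, rose by 0.36 in midbrain at 3 months (limma adjusted p = 0.0327), while the brightest one gave 0.14. These 3 were the only ones called of the 151 member probe sets in the 8 comparisons, 1.99% of them in midbrain at 3 months, against 0.611% of all probe sets. Under 11 other settings the Dnaja2 probe set passed in 6, and the Hspa8 probe sets in 4 and 3. The midbrain call of the Hspa8 probe set that fell was lost when any of the 6 mice but WT 1 was left out, and that of the one that rose when any mouse was. The rising Hspa8 and Dnaja2 probe sets were also picked out after their values were seen.

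Mitochondrial members stayed close to WT. Of the 9 measured, 1 was lower at an unadjusted p under 0.05, in cerebellum at 6 months, and none in the 7 other comparisons of KO and WT mice, while averaged over both ages 1 was higher in midbrain and 1 in liver. Hspe1 differed by 0.12 or less in every comparison, and Hspa9 by 0.12 or less except in cerebellum at 6 months (-0.21, SE 0.08, adjusted p = 0.590), where the groups did not overlap. Outside the family 1 of 7 mitochondrial folding genes was called: Grpel2, a nucleotide exchange factor for Hspa9, rose in liver by 1.21 at 3 months (SE 0.10, limma adjusted p = 3.66e-04) and 0.65 at 6 months (SE 0.10, limma adjusted p = 0.0183), and differed by 0.20 or less in size in the nervous tissues.

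Liver held the largest differences outside Hspa1b. Dnaja4, a heat- and sterol-responsive DNAJ protein, was 5.66, 5.96 and 6.16 in WT and 5.35, 5.24 and 5.34 in KO livers at 3 months, with all KO mice lower (-0.62, SE 0.16, adjusted p = 0.149). At 6 months WT levels were 5.25, 5.35 and 5.27 and KO levels 5.29, 5.74 and 5.78 (0.31, adjusted p = 0.475). The change between ages was 0.93 (SE 0.22, adjusted p = 0.246), and the other Dnaja4 probe set gave -0.05 at 3 months and 0.35 at 6 months. Hsph1 was 8.56, 9.53 and 9.09 in WT and 8.65, 8.80 and 8.19 in KO livers at 3 months (-0.51, SE 0.27, adjusted p = 0.549), where the groups overlapped. Dnajc5g (-0.50), also among the largest at this age, exceeded 5 on no array.

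At 6 months the largest liver differences were at Dnajb5, Dnajb14 and Hspb8. Dnajb5 was 4.74, 4.91 and 5.30 in WT and 4.78, 4.06 and 4.05 in KO mice, with KO 122970 within the WT range (-0.69, SE 0.20, adjusted p = 0.172). Dnajb14, an ER membrane DNAJ protein, was 0.47 lower without overlap (SE 0.15, adjusted p = 0.223). Hspb8 was 9.96, 10.01 and 9.94 in WT and 10.62, 10.27 and 10.39 in KO mice, all KO mice higher (0.45, SE 0.13, adjusted p = 0.159), and its other probe sets gave 0.49 and 0.35.

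**Figure D5:**
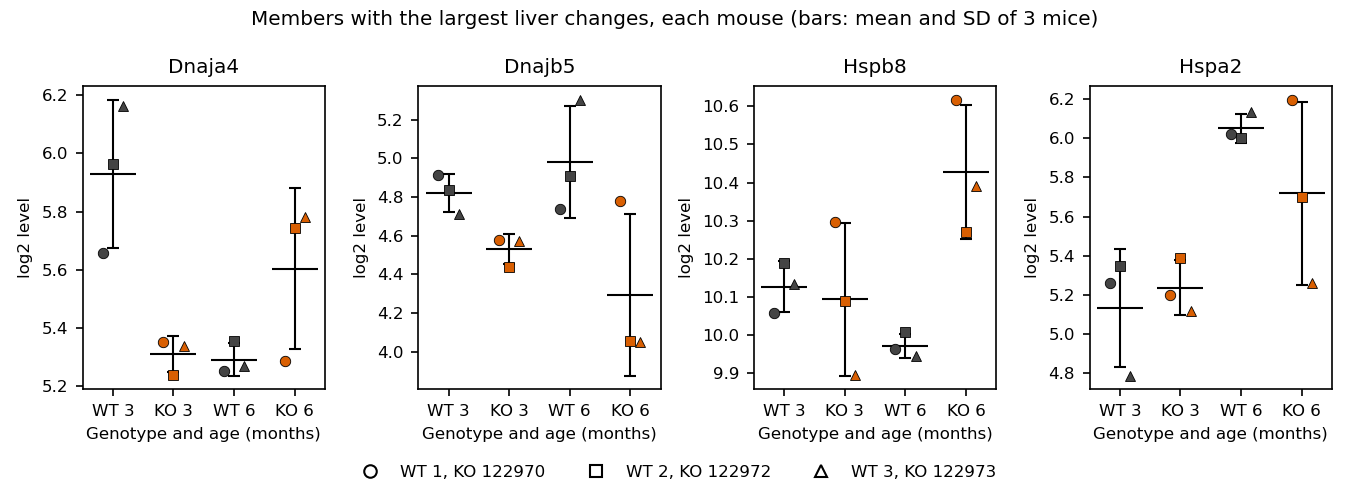
Log2 levels in liver of Dnaja4, Dnajb5, Hspb8 and Hspa2 in each mouse, by genotype and age in months, with bars for the mean and SD of 3 mice and a separate axis for each gene. The KO livers of 3 months lie below the WT livers for Dnaja4, and those of 6 months lie above them for Hspb8.

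The KO effect in liver was set against its mean over the nervous tissues in a weighted fit of all arrays. At 6 months 1 of 68 members was called (1.89% of all probe sets), and at 3 months 0 (1.43%), with 13 and 8 at an unadjusted p under 0.05 (11.7% and 10.7%). The member was Dnajb5, with a difference of -0.69 (SE 0.18, limma adjusted p = 0.0376). Its level in liver was near 5, its other probe sets gave 0.28 and -0.02 in liver at 6 months, and the call was lost with the mean of all Dnajb5 probe sets (-0.13, adjusted p = 0.793), with the mouse as a block (adjusted p = 0.331), and without WT 1, WT 2, WT 3, KO 122972 or KO 122973.

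Few members were called between the ages. From 3 to 6 months 0 of 68 were called in spinal cord of WT (0.218% of all probe sets) or KO mice (0.0311%), cerebellum of WT (0.673%) or KO (0.0289%), midbrain of WT (0.770%) or KO (0.00444%), and liver of WT (0.420%) or KO (0.0466%). At an unadjusted p under 0.05 these held 7 members (12.3%), 5 (6.51%), 8 (13.9%), 2 (8.31%), 14 (16%), 6 (8.76%), 5 (11.4%) and 7 (11.4%). Over both genotypes, 1 of 68 was called in cerebellum (1.21%), and 0 in spinal cord (0.349%), midbrain (0.364%) and liver (0.619%), with 9, 7, 12 and 6 at an unadjusted p under 0.05 (14.9%, 11.0%, 13.4% and 13.6%).

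Groups of 3 and 6 months did not overlap for 7 members higher and 6 lower at 6 months in WT spinal cord (8.42% and 10.1% of all probe sets), 4 and 3 in KO spinal cord (5.46% and 5.77%), 6 and 2 in WT cerebellum (11.1% and 6.93%), 7 and 7 in KO cerebellum (7.73% and 7.70%), 10 and 6 in WT midbrain (8.77% and 13.2%), 7 and 7 in KO midbrain (7.20% and 6.99%), 7 and 14 in WT liver (9.42% and 7.87%), and 8 and 6 in KO liver (8.95% and 8.37%). The 14 members lower in WT liver were 20.6% of the 68.

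The called member was Hspa2, an HSP70 best known from male germ cells. In cerebellum it was 6.45, 6.51 and 6.36 in WT and 6.44, 6.55 and 6.47 in KO mice at 3 months, and 6.73, 6.83 and 6.79 in WT and 6.84, 6.75 and 6.76 in KO mice at 6 months. Every mouse of 6 months lay above every mouse of 3 months in both genotypes (0.32, SE 0.06, limma adjusted p = 0.0137). Markers of other cell types differed between the ages in the same cerebella. All 6 choroid plexus markers were above 0 in the difference over both genotypes (median 1.44, none called), as were all 5 ependymal markers (median 0.33, none called), while 3 of 8 microglial markers were called higher and 1 of 7 oligodendrocyte markers lower. The mean of the choroid plexus list ran from 4.16 to 8.08 in WT and 4.26 to 8.02 in KO mice at 3 months, and from 6.56 to 8.30 in WT and 5.62 to 7.98 in KO mice at 6 months. Their part in the Hspa2 difference was not tested. In liver WT mice rose from 5.26, 5.35 and 4.79 to 6.02, 6.00 and 6.14 (0.92, SE 0.22, adjusted p = 0.118), and KO mice from 5.20, 5.39 and 5.12 to 6.195, 5.70 and 5.26 (0.48, adjusted p = 0.427), where the groups overlapped. Over both genotypes the liver difference was 0.70 (adjusted p = 0.0662).

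Hspa1b had the largest age difference of all members in spinal cord, down in WT (-0.60) and up in KO mice (0.85), and likewise in midbrain (-0.54 and 0.55). These comparisons share their samples with the KO comparisons above. The other largest age differences were Hspa1l (-0.38) and Dnajc17 (0.29) in WT and Dnajc5g (0.30) and Dnajb12 (0.22) in KO spinal cord, Dnajb8 (0.46) and Hspb2 (0.32) in WT and Hspa1b (0.34) and Hspb1 (0.33) in KO cerebellum, Dnajc17 (0.49) and Hspb11 (0.31) in WT and Hspb7 (-0.33) and Hspa2 (0.27) in KO midbrain, and Dnaja4 (-0.64) and Hspa1b (-0.61) in WT and Dnajb14 (-0.59) and Hsph1 (0.48) in KO liver. None passed the test, and Hspa1l, Dnajc17, Dnajc5g, Dnajb8, Hspb2, Hspb11 and Hspb7 exceeded 5 on no array. Among the KO comparisons Dnajc17 (0.31 in spinal cord and 0.29 in midbrain at 3 months), Dnajb13 (0.30 and 0.36) and Hspb7 (-0.28 in midbrain at 6 months) were such dim probe sets, and Dnajc1 (0.24) and Hspb8 (-0.24) were the others among the largest in cerebellum at 3 months.

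In all, 53 of the 68 members had a mean above 5 over the 48 arrays. The 12 that exceeded 5 on no array were Dnajb3, Dnajb8, Dnajb13, Dnajc5b, Dnajc5g, Dnajc17, Hspa1l, Hspb2, Hspb3, Hspb7, Hspb9 and Hspb11, and 3 more had a mean of 5 or below, of which Dnajc22 exceeded it in all 12 livers, Hspa12b on 5 arrays and Hspbap1 on 1. Of the 12 dim members 9 were higher in WT liver than in nervous tissue, as were 76% of all probe sets that dim, so tissue differences at these levels say nothing particular about the members.

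Partners of the chaperones outside the family gave calls for 1 gene. Of 23 HSP70 and HSP90 partner genes only Fkbp5, an HSP90 co-chaperone of steroid receptors, was called: it rose by 1.14 in cerebellum at 3 months (limma adjusted p = 0.0242), 0.89 in midbrain at 6 months (limma adjusted p = 0.0376) and 1.11 in liver at 6 months (limma adjusted p = 0.0289), and was higher in the other 5 comparisons without passing. In midbrain averaged over both ages, 19 of the 23 were above 0, with 6 higher and 0 lower at an unadjusted p under 0.05, beside the 13.7% of all probe sets in either direction. None of 14 CCT and prefoldin genes, 6 other heat shock and crystallin genes or 2 cold-inducible RNA-binding protein genes was called in any of the 8.

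Genes that follow steroid hormones and the time of day moved in the same mice. Fkbp5 is also induced by glucocorticoids, and of 8 such genes measured, 1 to 5 were called higher in each comparison, with Tsc22d3 lower in liver at 6 months. The largest among them was Mt1 in liver at 6 months (3.32, limma adjusted p = 0.00219), followed by Mt1 in liver at 3 months (2.20, adjusted p = 0.0251) and Cdkn1a in midbrain at 3 months (1.89, adjusted p = 0.00435). Among 14 clock genes Dbp was called lower in 6 of 6 nervous comparisons (-0.85 to -0.48), Npas2 higher in 3 and Per3 lower in liver at 3 months. Of 12 immediate early genes Atf3 in spinal cord (-0.59) and Npas4 in midbrain (-1.18) were called lower at 3 months. The part of hormone state or time of killing in the Hspa1b, Hspa5 and Hspb1 values was not tested.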

How the data were processed

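RNA from the 4 tissues had been hybridised to 48 Affymetrix HT MG-430 2.0 PM arrays, and the authors deposited log2 values from RMA in R 2.14.0 (background correction, quantile normalisation and probe set summary), which compresses dim differences. Of 45141 probe sets, 104 controls were left out and 45037 tested. 28898 carried 1 gene symbol in the platform annotation, 551 several and 15588 none. Values were used as deposited, with no filter, and all arrays were kept.

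Linear models were fitted with limma 3.58.1 (statmod 1.5.0, R 4.3.3). KO, age and interaction contrasts came from 1 model per tissue (12 arrays, 8 residual degrees of freedom), and tissue contrasts from all 48 arrays with array weights per tissue. Calls needed a Benjamini-Hochberg adjusted p under 0.05 over all probe sets. The procedure was tested on simulated data. P-values measure the spread between 3 mice per group, and their number limits the precision. The labels repeat KO numbers 122970, 122972 and 122973 at both ages, and these were treated as separate mice. The same number was taken as the same mouse across tissues. Between ages or genotypes the numbers pair nothing in the labels. The consensus correlation of same-numbered arrays of both ages within a genotype was -0.0230 in liver, 0.00126 in spinal cord, 0.0121 in midbrain and 0.0296 in cerebellum.

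Text was given, for each comparison, to the 3 members with the largest difference (6 for tissues), to the main stress-inducible, ER and mitochondrial chaperones, to up to 5 called interactions and to up to 3 called genes per outside list. Members, lists and alternatives were chosen with earlier results of these data known. Alternatives were another prior, unweighted and weighted fits of all arrays, quantile normalisation, the mean of a gene's probe sets, a level filter, replicate blocks and leaving out each mouse.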

Additional observations from a re-analysis of the deposited data

Results flagged for a closer look

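Dnajb5 in liver was marked because its KO effect there differed from that of the nervous tissues at 6 months by a test of the difference itself, with -0.69 (SE 0.18, limma adjusted p = 0.0376). As described above, the difference came from 1 of several Dnajb5 probe sets near a level of 5 and did not pass with KO 122972 or KO 122973 left out.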

How the results depend on the processing

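Of the counts of called members under other settings, 501 stayed within 1.5 times of the value reported and 67 did not, and of the tested log2 differences 5843 kept their direction and their side of the threshold, 72 passed it newly, 28 no longer passed and 1 reversed, while 254 changed sign without passing the threshold under either setting. The difference of Dnajc19 in WT cerebellum reversed with the mean of its probe sets, from -1.01 to 0.047 (adjusted p = 0.320). For these settings and those of the next paragraph, the share of all probe sets called was not counted. Their counts therefore cannot be read as a result about the members. Counts reported as 0 became the following. With the weighted fit of all arrays, KO against WT gave 1 member in spinal cord and 2 in midbrain at 6 months and 1 in liver at each age, and age gave 2 in WT spinal cord, 1 in WT cerebellum, 3 in WT and 1 in KO midbrain, 2 in WT and 1 in KO liver. Over both ages KO gave 1 in midbrain and 1 in liver, age over both genotypes gave 2 in each of spinal cord, midbrain and liver, and 1 member had a changed KO effect in liver. Without weights, KO gave 9 and 11 in liver, 10 over both ages, age gave 1 in WT cerebellum, 4 in WT and 8 in KO liver, and 10 over both genotypes, and 4 members had a changed KO effect in liver. The 1 age call in cerebellum over both genotypes fell to 0, and the liver contrast against nervous tissue rose to 3 at 3 months and 7 at 6 months. With a trended and robust prior, KO gave 1 in spinal cord at 6 months, 2 and 1 in midbrain and 1 in liver at 6 months, and over both ages 1 in spinal cord, 4 in midbrain and 1 in liver. Age then gave 4 in WT midbrain and 2 in WT liver, over both genotypes 2 in each of cerebellum, midbrain and liver, with 1 changed KO effect in liver and 1 in the liver contrast at 3 months. With the mean of probe sets, age gave 1 in WT cerebellum, 2 in WT midbrain and, over both genotypes, 1 in midbrain and 1 in liver, and the liver contrast at 6 months fell from 1 to 0. With probe sets above 5 on at least 3 arrays, KO gave 1 in midbrain at 3 months and 1 over both ages, and age gave 2 in WT cerebellum, 2 in WT midbrain and, over both genotypes, 1 in midbrain and 2 in liver. Quantile normalisation again within the tissue gave 1 age call in WT midbrain. The cause was not tested.

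The replicate block within each animal took the liver contrast at 6 months from 1 to 0 (Dnajb5, adjusted p = 0.331), and pairing the ages by label number changed no other count past 1.5 times. Leaving out 1 mouse gave 0 to 1 calls for KO in spinal cord and liver at 6 months and for KO in liver over both ages (1 without KO 122970 of 6 months), 0 to 1 for age in WT midbrain and in midbrain over both genotypes (1 without WT 2 of 3 months), 0 to 1 for age in liver over both genotypes (1 without KO 122973 of 6 months), 0 to 2 for the liver contrast at 3 months (2 without WT 1) and 0 to 2 at 6 months (2 without KO 122970).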
